A study of Mus musculus with 7 samples.

Results

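The enzymes of fatty acid oxidation in the peroxisome were followed in adipocytes of the mouse 3T3-L1 line, an established line of fibroblast-like cells that fill with fat under a hormone mixture. The labels call the cells pre-adipocytes and the series design adipocytes. They differentiated for 7 days, with isobutylmethylxanthine, dexamethasone and human insulin for the first 2 days and human insulin afterwards. Throughout, 3 samples received 1 µM of a commercially available inhibitor of stearoyl-CoA desaturase (SCD), the enzyme that turns saturated into monounsaturated fatty acids, and 4 samples received an equal volume of the solvent DMSO. No source used here names the compound, and no genetic change is labelled in either group. The 9 genes described, of 18820 genes measured, are Acox2, Acox3, Ehhadh, Hsd17b4, Acaa1a, Acaa1b, Crot, Amacr and Phyh. They were chosen by name, with earlier results of these data known. Each gene is represented by the array row that carries its symbol alone and has the highest mean over the 7 arrays.

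Peroxisomes shorten fatty acids that mitochondria handle poorly, such as very long, branched and dicarboxylic chains and the side chain of bile acid precursors. An acyl-CoA oxidase makes the first double bond and passes the electrons to oxygen, which gives hydrogen peroxide. A bifunctional enzyme adds water and oxidises the product, a thiolase splits off acetyl-CoA or propionyl-CoA, and carnitine acyltransferases hand the shortened chains on toward mitochondria. Many of these genes are known in rodent liver as targets of the nuclear receptor PPARα.

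Sequence upstream of the start sites is shown for the 3 enzyme genes that passed the test and for Acox3, the other oxidase described, which did not pass. The windows of 250 bases before an annotated start were taken from RefSeq on GRCm38.p6 and are given 5′ to 3′ on the gene's strand, for Acox3 only the 197 bases before the first annotated base of the gene. Capitals mark matches to the CCAAT box (CCAAT) or the GC box (GGGCGG) on either strand, and to the half-site of nuclear receptors (AGGTCA), of which these windows held none. The windows lie at chr14:8259020-8259269 (minus strand, the upstream of 2 starts of Acox2 in the table), chr16:21787835-21788084 (minus strand), chr2:4918746-4918995 (plus strand) and chr5:35582784-35582980 (plus strand).
Acox2: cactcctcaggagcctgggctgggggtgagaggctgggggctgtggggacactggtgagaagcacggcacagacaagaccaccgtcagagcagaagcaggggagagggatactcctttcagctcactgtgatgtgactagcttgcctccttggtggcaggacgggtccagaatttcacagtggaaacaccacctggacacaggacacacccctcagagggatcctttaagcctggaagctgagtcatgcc
Ehhadh: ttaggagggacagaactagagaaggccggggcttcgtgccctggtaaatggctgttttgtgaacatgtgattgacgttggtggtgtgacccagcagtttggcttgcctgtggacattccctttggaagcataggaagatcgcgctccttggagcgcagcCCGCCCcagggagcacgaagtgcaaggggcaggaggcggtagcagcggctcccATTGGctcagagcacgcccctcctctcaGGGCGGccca
Phyh: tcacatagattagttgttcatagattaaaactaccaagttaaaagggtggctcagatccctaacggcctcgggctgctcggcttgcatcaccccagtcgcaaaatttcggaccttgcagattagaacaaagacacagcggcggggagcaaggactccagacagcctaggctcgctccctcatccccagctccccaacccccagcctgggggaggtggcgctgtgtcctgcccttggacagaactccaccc
Acox3: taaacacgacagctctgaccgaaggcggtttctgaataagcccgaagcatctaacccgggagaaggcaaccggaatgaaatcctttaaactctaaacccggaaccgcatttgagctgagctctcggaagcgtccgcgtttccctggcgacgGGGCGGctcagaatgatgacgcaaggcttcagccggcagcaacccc
The table had windows for 7 of the 9 genes, 8 windows in all, and not for Hsd17b4 and Amacr. CCAAT stood in 5 of the 8 windows and in 33.8% of 32851 mouse windows of the same length. Its first base lay 36 bases before the downstream Acox2 start, whose window is not shown, 38 before the start of Ehhadh and 38 before that of Acaa1b. GGGCGG stood in 4 of the 8 windows, against 32.7% of all, with 4 matches in the whole Acox3 window, 2 in Ehhadh and none in either Acox2 window or in Phyh. AGGTCA stood in 0 of the 8 and in 14.0% of all, and the PPAR element AGGTCANAGGTCA, which contains AGGTCA, in 0 of the 8 and in 0.0335% of all. CACGTG (6.02% of all) and TGACGTCA (1.55% of all) were searched in the same way and stood in none of the 8. Only exact matches within the 250 bases were counted. The PPAR element is so rare among all windows that its absence from 8 does not show whether these genes have PPAR sites.

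Of the 9 enzymes, 3 were lower with the SCD inhibitor and none was higher. The oxidase gene Acox2, whose product acts on precursors of bile acids, was 4.07-fold lower. Ehhadh, the bifunctional enzyme classically tied to straight and dicarboxylic chains, was 2.66-fold lower. Phyh, which starts the alpha-oxidation of phytanic acid, was 1.23-fold lower, and its call was lost without most single arrays. Limma's fit over all 18820 genes called a gene at an adjusted p under 0.05. At that threshold 4.37% of all genes were lower and 3.62% higher, against 3 of 9 and 0 of 9 enzymes. The median log2 difference of the 9 enzymes was -0.17, and that of all genes was -0.0037. Inhibitor values lay wholly below DMSO values for 4 of the 9, against 9.02% of all genes, and wholly above for 0 of the 9, against 8.30%. Because the 9 genes were chosen with earlier results of these data known, these shares describe them and do not test an excess. Centring each array on its median, which left 3 enzymes lower and 0 higher, changed the count over all genes to 1030 lower and 1296 higher, from 823 lower and 682 higher.

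**Figure D1:**
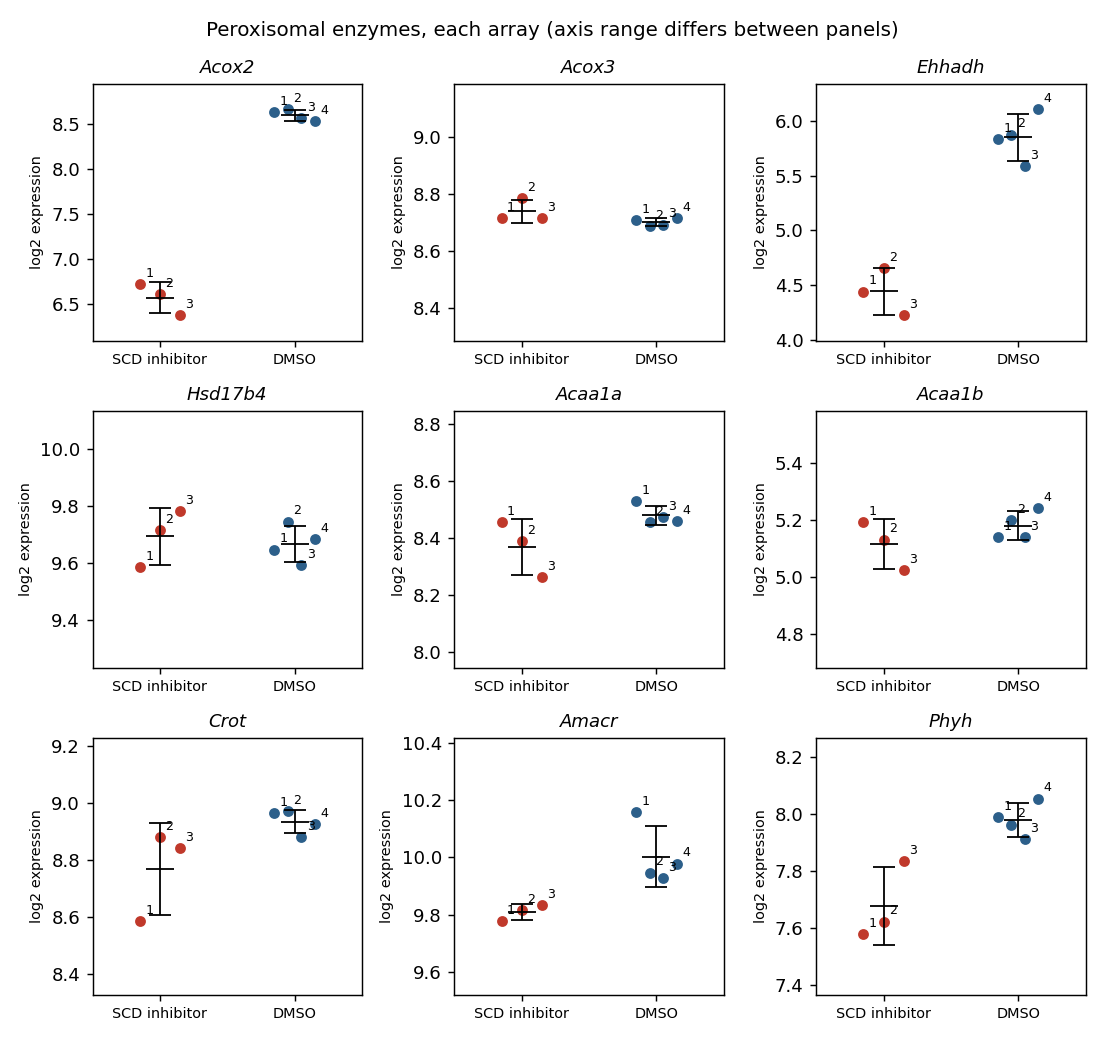
Log2 expression of each enzyme gene on each array, SCD inhibitor (3 arrays, red) left of DMSO (4 arrays, blue). Points carry replicate numbers, bars give the mean ± SD, and the axis range differs between panels; the groups are apart for Acox2, Ehhadh, Amacr and Phyh, with Acox2 between 6.38 and 6.72 with the inhibitor and between 8.53 and 8.66 in DMSO.

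The arrays showed the adipocyte genes of a differentiated culture: the 8 adipocyte markers, Adipoq, Fabp4 and Plin1 among them, had mean levels from 10.59 to 12.71, and 1 of the 8, Adipor2, was lower. Of 6 markers of precursors and fibroblasts, Pdgfra (log2 0.89) and Dlk1 (log2 0.32) were higher with the inhibitor. The summed log2 level of that list was 42.65 to 43.00 with the inhibitor and 41.10 to 41.78 in DMSO, and its part in the enzyme results was not tested. For the adipocyte list the sum was 96.11 to 96.54 with the inhibitor and 96.51 to 96.88 in DMSO. None of 5 macrophage, 4 endothelial and 4 hepatocyte markers passed. Of 4 muscle markers Des was lower (log2 -0.98), while Myod1 and Myog lay at mean levels of 4.08 and 3.83 with the inhibitor and 4.19 and 3.83 in DMSO. In whole cultures, fewer cells of a type and less RNA per cell cannot be told apart.

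The oxidases came first in the pathway. Acox2 read 6.72, 6.61 and 6.38 with the inhibitor, against 8.63, 8.66, 8.56 and 8.53 in DMSO. All 3 inhibitor arrays were lower than all 4 DMSO arrays, by more than the spread within either group. The group means were 6.57 ± 0.17 (SD, n = 3) with the inhibitor and 8.59 ± 0.060 (SD, n = 4) in DMSO, a log2 difference of -2.02 (SE 0.080, adjusted p = 4.77e-05 in limma). Counted from the largest decrease, this was number 10 of all 18820 genes. The call held in all 17 alternatives, with adjusted p from 5.59e-07 to 0.00934 in limma.

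Acox3 encodes the oxidase known for pristanoyl-CoA, a branched substrate. It read 8.71, 8.79 and 8.71 with the inhibitor and 8.71, 8.69, 8.69 and 8.71 in DMSO. The groups overlapped, and the log2 difference of 0.04 (SE 0.023, 95% interval -0.02 to 0.09) did not pass (adjusted p = 0.406 in limma). A dimmer second row of Acox3 had means of 4.47 ± 0.089 with the inhibitor (SD, n = 3) and 4.57 ± 0.075 in DMSO (SD, n = 4), a log2 difference of -0.10 with adjusted p = 0.436 over all rows in limma. Averaging both rows turned the sign of the Acox3 difference, to -0.03. The changes of the 2 oxidases were set against each other. Within each array, the log2 value of Acox2 minus that of Acox3 shifted by -2.06 between the groups (SE 0.091), and the groups did not overlap. A two-sided exact permutation test over the 7 arrays gave p = 0.0571, and 0.0857 after adjustment over the 3 pairs compared. In the form used, which doubles the p of the smaller tail, 0.0571 is the smallest value possible with these arrays. No pair could therefore pass 0.05 in this form of the test.

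The bifunctional step has one enzyme of each stereochemical course. Ehhadh, the L-bifunctional protein, read 4.44, 4.66 and 4.23 with the inhibitor, against 5.83, 5.88, 5.59 and 6.11 in DMSO. Its spread was the widest of the 9 genes in both groups, and the groups did not overlap. The means were 4.44 ± 0.21 with the inhibitor (SD, n = 3) and 5.85 ± 0.21 in DMSO (SD, n = 4), a log2 difference of -1.41 (SE 0.14, adjusted p = 0.00209 in limma). It stood at number 31 of 18820 genes counted from the largest decrease. The call held in 15 of 16 alternatives and was lost when both arrays numbered 1 were left out (adjusted p = 0.0575 in limma). The inhibitor mean lies below the lowest array median, which was 4.88 over all rows and 5.53 over the genes tested. RMA values can compress changes of dim genes, so the size of the decrease may be understated.

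Hsd17b4 encodes the D-bifunctional protein, which also serves branched chains and bile acid intermediates. It read 9.59, 9.72 and 9.78 with the inhibitor and 9.65, 9.75, 9.59 and 9.69 in DMSO. The groups overlapped, and the log2 difference of 0.03 (95% interval -0.10 to 0.16) did not pass (adjusted p = 0.815 in limma). It turned to -0.02 without SCD inhibitor 3. Ehhadh minus Hsd17b4 within each array shifted by -1.44 between the groups (SE 0.17) without overlap, with the same exact permutation p of 0.0571, or 0.0857 adjusted over the 3 pairs.

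**Figure D2:**
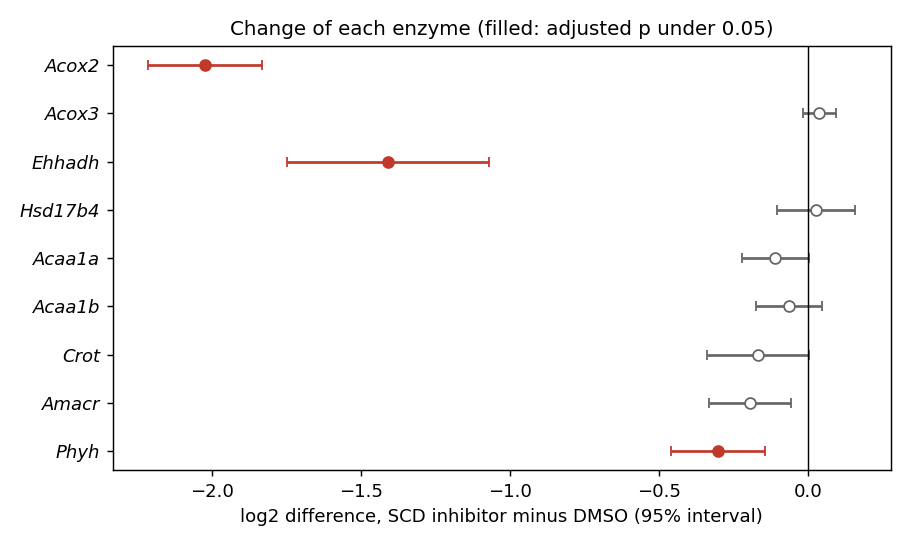
Log2 difference, SCD inhibitor minus DMSO, of each enzyme gene with its 95% interval from limma (n = 3 against 4). Filled red points passed an adjusted p of 0.05: Acox2 at -2.02, Ehhadh at -1.41 and Phyh at -0.30; the open points lie between -0.20 and 0.04.

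Neither of the 2 genes of 3-ketoacyl-CoA thiolase passed. Acaa1a read 8.46, 8.39 and 8.26 with the inhibitor and 8.53, 8.46, 8.47 and 8.46 in DMSO, and its log2 difference was -0.11 (95% interval -0.22 to 0.0023, adjusted p = 0.237 in limma). Acaa1b, the copy known for its strong induction through PPARα in mouse liver, read 5.19, 5.13 and 5.02 with the inhibitor and 5.14, 5.20, 5.14 and 5.24 in DMSO. Its log2 difference was -0.06 (95% interval -0.18 to 0.05, adjusted p = 0.475 in limma). For both genes SCD inhibitor 3 was the lowest array and the groups overlapped. The 2 changes differed by 0.05 (Acaa1b minus Acaa1a, SE 0.046), and the exact permutation test gave p = 0.514. The 2 genes are close copies, and whether the array's probes tell their transcripts apart was not tested.

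Crot encodes carnitine octanoyltransferase, which moves shortened chains onto carnitine for transport out of the peroxisome. It read 8.59, 8.88 and 8.84 with the inhibitor and 8.96, 8.97, 8.88 and 8.93 in DMSO. SCD inhibitor 1 was well below the other inhibitor arrays, and the highest inhibitor value equalled the lowest DMSO value. The log2 difference was -0.17 (SE 0.072, 95% interval -0.34 to 0.0053, adjusted p = 0.242 in limma). Amacr encodes the racemase that turns 2-methyl branched acyl-CoAs into the form the oxidases accept. It read 9.78, 9.81 and 9.83 with the inhibitor, against 10.16, 9.95, 9.93 and 9.98 in DMSO. All inhibitor arrays were lower than all DMSO arrays, but the log2 difference of -0.20 (SE 0.058, 95% interval -0.33 to -0.06) did not pass (adjusted p = 0.106 in limma). DMSO 1 was its highest array, and without it the difference was -0.14 and passed (adjusted p = 0.0279). It also passed when the dimmest 50% of genes were dropped (adjusted p = 0.0469).

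Phyh encodes phytanoyl-CoA hydroxylase, which readies phytanic acid for the removal of its first carbon, since its methyl branch blocks beta-oxidation. It read 7.58, 7.62 and 7.83 with the inhibitor, against 7.99, 7.96, 7.91 and 8.05 in DMSO. The groups did not overlap, though SCD inhibitor 3, the highest of its group, came close to DMSO 3, the lowest of the other. The log2 difference was -0.30 (SE 0.066, adjusted p = 0.0403 in limma). The direction held in all 17 alternatives, but the call ended in 9. Leaving out DMSO 1, 2, 3 or 4 gave an adjusted p in limma of 0.115, 0.102, 0.0790 or 0.117. Leaving out SCD inhibitor 1 gave 0.111, SCD inhibitor 2 gave 0.139 and SCD inhibitor 3 gave 0.0115. It was 0.0554 with all rows of the table tested and 0.231 when both arrays numbered 1 were dropped.

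The lowest inhibitor array was not the same for all 9 genes. SCD inhibitor 3 was lowest for Acox2, Ehhadh, Acaa1a and Acaa1b, and SCD inhibitor 1 for Hsd17b4, Crot, Amacr and Phyh. For Acox3 the 2 arrays tied.

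Other genes around the pathway mostly did not pass. Of 19 measured genes of peroxisomal beta-oxidation, acyl-CoA import and support, 1 was higher and none was lower, with a median log2 difference of -0.0060. The 1 was Ech1, a dienoyl-CoA isomerase (log2 0.19, SE 0.036, adjusted p = 0.0246 in limma). Its call ended without DMSO 1, DMSO 2, DMSO 3, SCD inhibitor 1 or SCD inhibitor 2 (adjusted p from 0.0700 to 0.0902). Inhibitor values lay wholly below DMSO values for 3 of the 19 (9.02% of all genes) and wholly above for 2 (8.30%). In this list 3 genes were lower and 1 higher after a further quantile normalization, with centred arrays or without the dimmest 50% of genes. Of 6 genes of alpha-oxidation and ether lipid synthesis 1 was higher and 5 did not pass. It was Hacl1, the lyase that acts after Phyh in alpha-oxidation, at 9.18, 9.16 and 9.15 with the inhibitor and 8.97, 8.84, 8.82 and 8.92 in DMSO. Hacl1 rose by 0.27 on the log2 scale (SE 0.040, adjusted p = 0.00855 in limma), a call that held in all 17 alternatives. Phyh, at -0.30, and Hacl1 act in the same pathway, and the difference between their changes was not tested.

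Of 13 measured peroxins, the proteins that build peroxisomes, 12 did not pass and the median log2 difference was -0.01. Pex6, an ATPase that recycles the import receptor, was lower (log2 -0.22, adjusted p = 0.0421 in limma), a call that ended without any 1 of the 7 arrays, DMSO 1 to 4 and SCD inhibitor 1 to 3 (adjusted p from 0.0578 to 0.134). Of 12 other matrix and membrane genes of the peroxisome 3 were lower and 9 did not pass, with a median of -0.04. Ddo, the peroxisomal D-aspartate oxidase, read 3.42, 3.54 and 3.43 with the inhibitor, against 4.83 to 5.02 on the 4 DMSO arrays. It was 2.82-fold lower (log2 -1.50, SE 0.054, adjusted p = 3.67e-05 in limma), a decrease close in size to that of Ehhadh. The inhibitor mean of 3.46 lies below the lowest array median of 4.88, so this decrease, like that of Ehhadh, may be understated. Pxmp2, a peroxisomal membrane channel, was lower by a log2 difference of -0.45 (adjusted p = 0.0200 in limma), with adjusted p from 0.0615 to 0.0721 without DMSO 1, DMSO 2, DMSO 4 or SCD inhibitor 3, and DMSO 3 was low for its group. Ephx2, the soluble epoxide hydrolase, had a difference of -0.20 (adjusted p = 0.0176 in limma), with adjusted p from 0.0528 to 0.0720 without DMSO 4 or any 1 of SCD inhibitor 1 to 3.

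**Figure D3:**
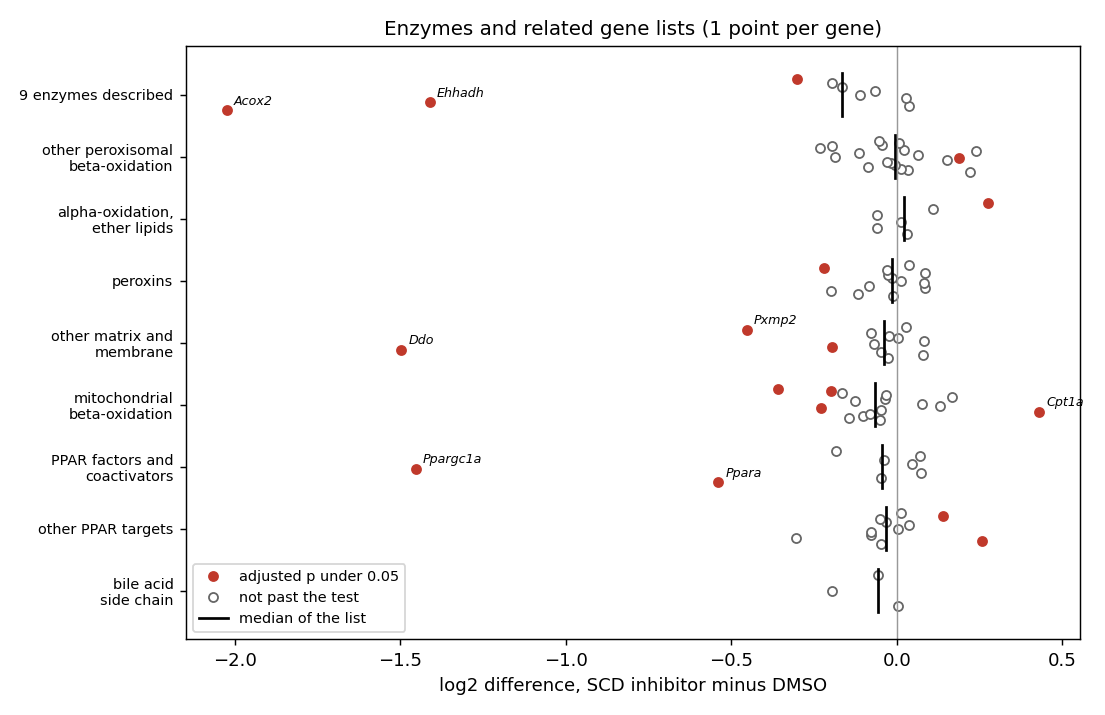
Log2 difference, SCD inhibitor minus DMSO, of the 9 enzymes and of 8 lists of related genes, 1 point per gene and a bar at each list's median. Red points passed an adjusted p of 0.05 in limma; Acox2 and Ehhadh stand far left of the other peroxisomal genes except Ddo at -1.50, while list medians lie between -0.17 and 0.02.

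Of 16 measured mitochondrial beta-oxidation genes 3 were lower and 1 was higher, with a median of -0.07 and a range from -0.36 to 0.43. Inhibitor values lay wholly below DMSO values for 7 of the 16 (9.02% of all genes) and wholly above for 3 (8.30%). Slc25a20, the carnitine carrier of the inner membrane, had a difference of -0.36 (adjusted p = 0.00630 in limma). Dropping both arrays numbered 1 raised that adjusted p to 0.0932. Hadhb, a subunit of the trifunctional protein, had a difference of -0.20 (adjusted p = 0.00836, and 0.0646 with replicate numbers fitted as blocks). Decr1, a dienoyl-CoA reductase, had one of -0.23 (adjusted p = 0.0161), with adjusted p from 0.0544 to 0.0580 without DMSO 1, DMSO 4 or SCD inhibitor 2. Cpt1a, which starts import into mitochondria, rose by 0.43 (SE 0.034, adjusted p = 7.60e-04 in limma). No mitochondrial gene of the list had a decrease of the size seen for Acox2 or Ehhadh.

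Among 8 PPAR factors, partners and coactivators 2 were lower. Ppara, which encodes PPARα, read 4.83, 4.84 and 4.88 with the inhibitor, against 5.54, 5.39, 5.26 and 5.38 in DMSO (log2 -0.54, SE 0.061, adjusted p = 0.00341 in limma). Its inhibitor mean of 4.85 also lies below the lowest array median of 4.88, so this decrease too may be understated. With replicate numbers fitted as blocks its call was lost (adjusted p = 0.0531 in limma). Ppargc1a, the coactivator PGC-1α, was 2.74-fold lower (log2 -1.45, SE 0.075). Pparg (0.07), Ppard (-0.05), Rxrb (0.07), Rxra (-0.04) and Ppargc1b (0.05, with DMSO 3 low for its group) did not pass. Rxrg, at a difference of -0.18, missed the threshold (adjusted p = 0.0748 in limma) but passed without SCD inhibitor 3 (0.0430), after a further quantile normalization (0.0387), with centred arrays (0.0245) and without the dimmest 50% of genes (0.0342). Of 11 other PPAR target genes 2 were higher and none was lower, with a median of -0.03. Mean levels in this list ran from 3.35 to 12.59, and several lay below the lowest array median of 4.88. In this list 1 gene was lower with centred arrays, with array weights or without the dimmest 25% of genes. The 2 higher genes were Angptl4 (0.26, adjusted p = 0.0269 in limma) and Plin2 (0.14, adjusted p = 0.0403). Angptl4 lost its call without DMSO 2, 3 or 4 or any 1 of SCD inhibitor 1 to 3 (adjusted p from 0.0632 to 0.0832), and Plin2 without any 1 of DMSO 1 to 4, SCD inhibitor 2 or SCD inhibitor 3 (0.0569 to 0.120). None of 3 genes of the bile acid side-chain pathway passed. Their mean levels ran from 3.43 to 4.39, below the lowest array median of 4.88, so a change of these genes could be missed. Of these, Cyp27a1, which begins the oxidation of that side chain, had the smallest p (log2 -0.20, adjusted p = 0.150 in limma).

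The genes whose pattern was most like that of Acox2 were found by the root mean square distance over the 7 arrays, each gene taken relative to its own DMSO mean. They were Pck1, the cytosolic enzyme of glyceroneogenesis (distance 0.097), Apoc1, an apolipoprotein (0.11), Sctr, the secretin receptor (0.14), Itih4, an inter-alpha-trypsin inhibitor heavy chain (0.15), and Slc25a34, a member of the mitochondrial carrier family (0.15). Their log2 differences ran from -2.11 to -1.89. Nearest to Ehhadh were Ddo (0.14), Cpsf6, a factor of mRNA 3′ processing (0.17), Trarg1, a regulator of glucose transporter traffic (0.17), C1qtnf12, a secreted C1q/TNF-related protein (0.18), and Ero1a, an oxidoreductase of the endoplasmic reticulum (0.18), with differences from -1.50 to -1.30. The distance mostly reflects the size of the group difference, since values vary little within groups.

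**Figure D4:**
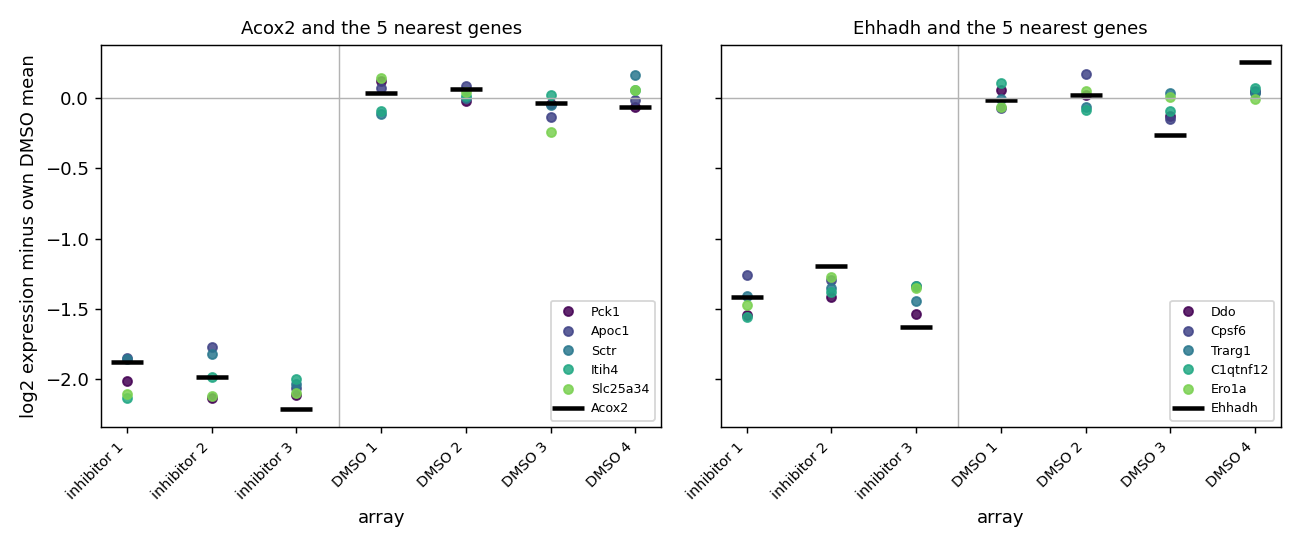
Log2 expression relative to each gene's own DMSO mean on the 3 SCD inhibitor arrays and the 4 DMSO arrays, for Acox2 (left, black bars) and Ehhadh (right, black bars) with the 5 nearest genes of each (coloured points). Acox2 and its neighbours lie near -2 on the inhibitor arrays, and Ehhadh varies more between arrays than its neighbours.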

How the data were processed

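Per the submitters' processing notes, the authors made the deposited log2 values with RMA, which corrects background, normalizes between arrays and summarises probes. No source used here gives its version or any filter. The labels' protocols state that 100 ng of total RNA per sample was labelled for 1 Affymetrix array. Labels do not say whether replicates were separate cultures, so p-values reflect no more than the spread of these samples, possibly technical. The number of arrays limits the precision (median SE 0.039).

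Of 28996 rows, 21218 carry 1 symbol, 1881 several and 5897 none, by the array annotation. Per gene the row with the highest mean was used, 18820 genes in all. Limma 3.58.1 (lmFit, eBayes) in R 4.3.3 fitted inhibitor against DMSO on all of them, with Benjamini-Hochberg adjustment. It was tested on simulated data. Exact permutation tests used scipy 1.17.1. Promoters came from RefSeq (GRCm38.p6).

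The members and lists were chosen with earlier results of these data known. Named genes were all 9 enzymes, up to 4 called genes per list (or the smallest p), all PPAR factors and the 5 nearest genes of the 2 enzymes with the largest change; unnamed predicted genes were skipped (1 per enzyme).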

Additional observations from a re-analysis of the deposited data

Results flagged for a closer look

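Single values in the 4 DMSO arrays were screened for 39 genes, and chance alone flags about 1 in 20 such groups. Pxmp2 on DMSO 3 read 6.27, below the other DMSO arrays at 6.47 to 6.48. Ppargc1b on DMSO 3 read 7.25, below the others at 7.47 to 7.49. No value of the 9 enzymes stood apart in this way.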

How the results depend on the processing

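The count of lower enzymes was 3 in the fit reported, 2 to 3 without single arrays and 1 without both arrays numbered 1; that of higher enzymes was 0 throughout. The 3 were not always the same genes: without DMSO 1 and without the dimmest 50% of genes Amacr was among them, in place of Phyh or Ehhadh. Whether replicate numbers pair the samples is not settled by the deviations from the group means. These correlated at r = 0.17, 0.14 and 0.08 for equal numbers 1 to 3. For unequal numbers r ran from -0.17 to 0.16, the highest for SCD inhibitor 2 with DMSO 4. With the replicate block, 459 genes were lower and 437 higher over all genes, and 4 lower and 3 higher in the related lists together, against 823, 682, 9 and 5 without it; 2 enzymes kept their call and Phyh did not (adjusted p = 0.179 in limma). Hadhb (0.0646) and Ppara (0.0531), whose calls held in all 7 fits without 1 array, also lost their call under the block, as did Ech1, Pex6, Pxmp2, Ephx2, Decr1 and Plin2 (0.0806 to 0.117). Centring gave 1296 higher genes and 14 lower genes in the lists, and a further quantile normalization gave 1032 higher genes. Without both arrays numbered 1 there were 374 lower and 434 higher genes and 4 lower genes in the lists. Without single arrays the counts ran from 541 to 643 lower and 369 to 712 higher genes, and from 5 to 8 lower and 2 to 6 higher in the lists. Differences not past the test changed sign for Acox3 (mean of both rows, -0.029), and, with their ranges without single arrays, for Hsd17b4 (-0.017 without SCD inhibitor 3, up to 0.082), Rxra (0.0091 without DMSO 1, down to -0.076) and Ppargc1b (-0.013 without DMSO 3, up to 0.068). The changes of Acox2 against Acox3 (-2.15 to -1.98 without single arrays), Ehhadh against Hsd17b4 (-1.53 to -1.29) and Acaa1b against Acaa1a (0.015 to 0.072) kept their direction in all 12 alternatives. Ehhadh and Acaa1b fall among the dimmest 50% of genes and have no value there. The causes were not tested.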
